A study of Mus musculus with 23 samples.

Results

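The 23 arrays described here came from micropunches of the mouse nucleus accumbens, and they differed widely in Slc17a7, the gene of the vesicular glutamate transporter VGLUT1. The arrays were chosen by that measured value: within each sex they were ranked by log2 Slc17a7 intensity, the 4 highest were taken as the Slc17a7-high arrays and the 4 lowest as the Slc17a7-low arrays. This gave 8 high and 8 low arrays of 23, and the 7 arrays between them (3 female, 4 male) were kept apart. High and low arrays were compared within each sex, and the 2 differences were averaged, for 22179 named genes other than Slc17a7. Because the classes rest on a readout of the same arrays, every high minus low difference is a description with no test.

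All mice were C57BL/6, about 15 weeks old, and each gave 1 array. About 5 weeks earlier the nucleus accumbens of every mouse, controls included, had been injected with an adeno-associated virus (AAV) that carried either a short hairpin RNA against Nr1d1, a clock gene encoding a nuclear receptor, or a scrambled hairpin. The 4 groups were control females (5 arrays), females labelled knockdown (6), control males (6) and males labelled knockdown (6), described as biological replicates. The labels give neither the promoter that drove the hairpin nor the share of cells infected. Their treatment text mentions a postpartum collection day for males as well, so reproductive state was not used. Nr1d1 itself lay between 9.73 and 10.17 on the female arrays and between 9.42 and 9.85 on the male arrays, and its label difference was −0.05 (SE 0.09) in females and −0.01 (SE 0.09) in males, so the hairpin groups are called arrays labelled knockdown throughout.

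VGLUT1 loads glutamate into synaptic vesicles, and in the forebrain its mRNA is made mainly by excitatory neurons of the cerebral cortex and hippocampus and related pallial structures. The nucleus accumbens is built mostly of GABAergic medium spiny neurons, with fewer cholinergic and GABAergic interneurons, and its glutamatergic input arrives as axons whose cell bodies lie elsewhere. In bulk tissue, fewer cells of a type and less RNA per cell cannot be told apart.

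Values are the deposited log2 intensities, in which a difference of 1 is a 2-fold change. Array medians over all probe sets lay between 6.11 and 6.17 in females and between 5.84 and 5.88 in males, so levels were compared within a sex only. No 2 arrays were identical, and arrays of the same sex correlated at 0.9866 or above. The lower quartile of named genes, used here to mark low values since no measure of signal over background was used, lay between 5.14 and 5.25 in females and between 4.85 and 4.93 in males.

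In females, Slc17a7 (probe set 17477714) stood at 11.13, 11.05, 10.83 and 10.57 on the high arrays, which were knockdown female 3, control female 3, knockdown female 6 and control female 4. The 3 arrays between the classes read 10.48, 10.46 and 10.39. The low arrays, knockdown females 4 and 1, control female 1 and knockdown female 2, read 10.25, 10.20, 9.40 and 8.92. The female ranking was nearly continuous at its edges, with 10.57 just inside and 10.48 just outside the high class, and 10.25 just inside and 10.39 just outside the low class.

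In males, Slc17a7 stood at 10.34 and 10.18 in control males 1 and 2 and at 9.97 and 9.80 in knockdown males 3 and 4, the high arrays. The 4 arrays between the classes read 8.98, 8.96, 8.72 and 8.01. The low arrays, control males 5 and 3, knockdown male 6 and control male 6, read 6.17, 5.43, 5.37 and 4.64. The male classes were set off by wider steps (9.80 against 8.98 at the upper edge, 6.17 against 8.01 at the lower), and control male 6 lay below the lower quartile of named genes. High exceeded low by 1.20 in females and by 4.67 in males, the values that defined the classes.

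**Figure D1:**
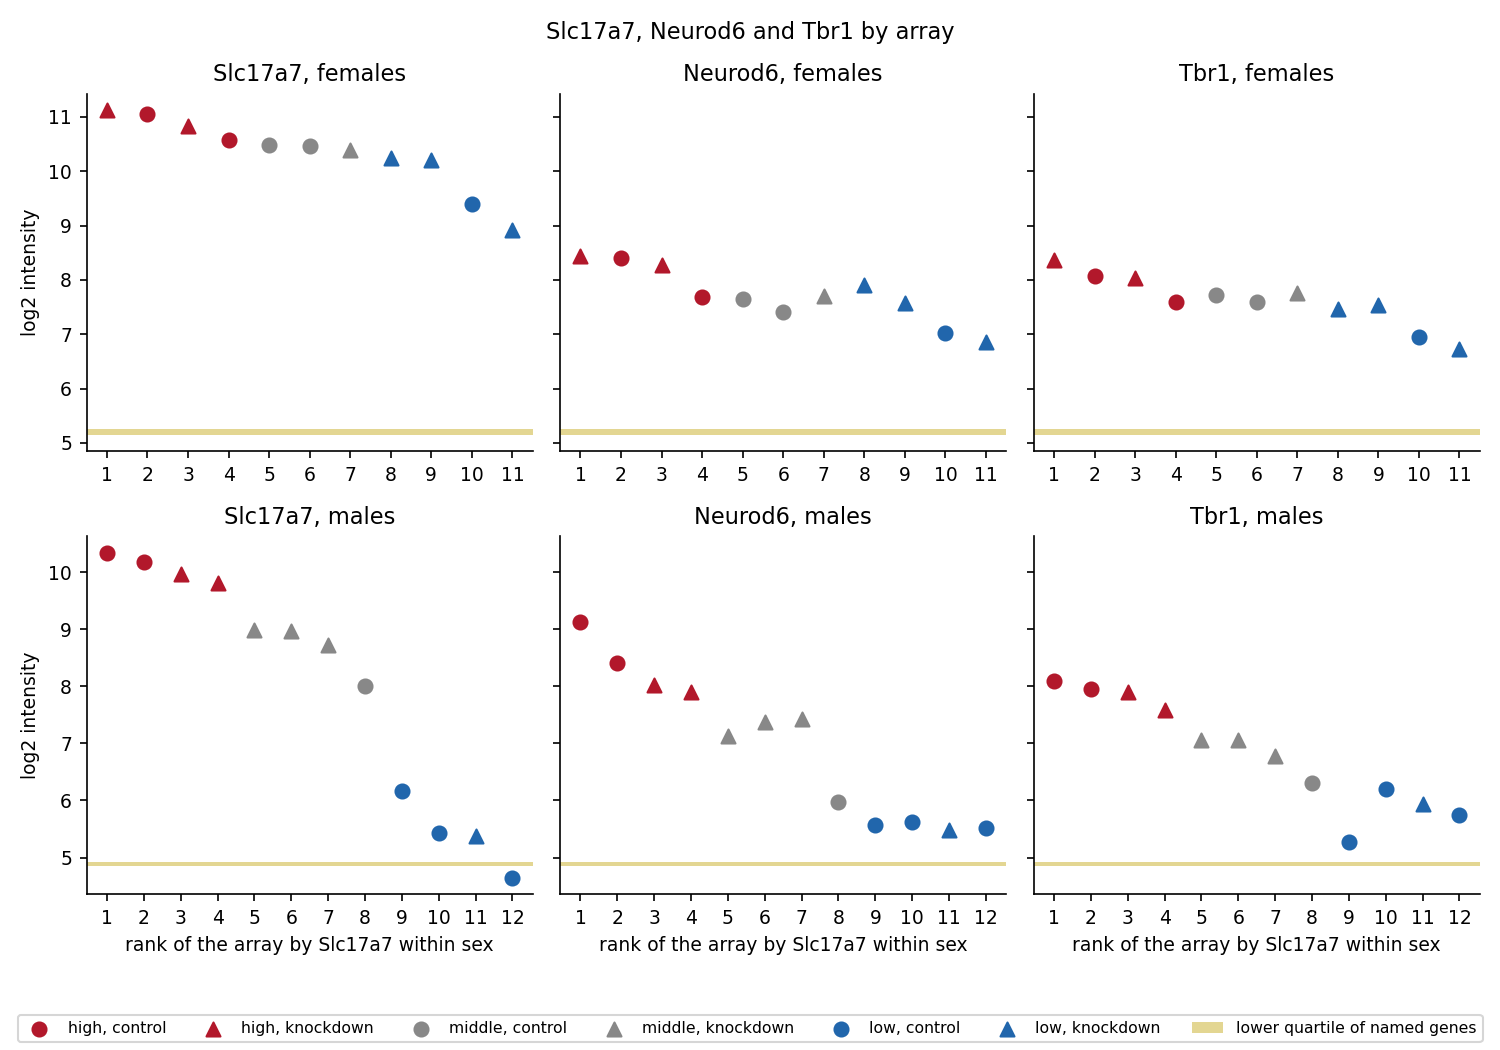
Log2 intensity of Slc17a7, Neurod6 and Tbr1 (vertical axes) on each array, ordered by the rank of Slc17a7 within females (top) and males (bottom); red is high, grey middle and blue low, circles are control and triangles knockdown arrays, and the band is the range of the lower quartile of named genes. In males, the 4 low arrays read 5.49 to 5.63 for Neurod6 while the 4 high arrays read 7.89 to 9.13.

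The name of the class as cortical was checked against 2 further markers. Neurod6, a basic helix-loop-helix transcription factor of pyramidal neurons, read 8.43, 8.41, 8.27 and 7.69 on the high female arrays and 7.91, 7.58, 7.02 and 6.86 on the low ones. These ranges overlapped, because knockdown female 4 of the low class lay above control female 4 of the high class, and the difference was 0.86. In males, Neurod6 read 9.13, 8.41, 8.02 and 7.89 on high arrays and 5.57, 5.63, 5.49 and 5.51 on low arrays, a difference of 2.81 with no overlap. Tbr1, a T-box transcription factor of early-born and deep-layer cortical neurons, read 8.37, 8.07, 8.04 and 7.60 against 7.46, 7.54, 6.94 and 6.72 in females. The male values of Tbr1 were 8.09, 7.95, 7.90 and 7.58 against 5.27, 6.20, 5.94 and 5.75. Tbr1 did not overlap between the classes in either sex, with differences of 0.86 and 2.09. Both markers thus moved with Slc17a7, and both remained well above the lower quartile of named genes on every female array, low arrays included.

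A gene was called when its averaged difference was at least 1 in size and its 4 high and 4 low arrays did not overlap in either sex, in the same direction. By this rule 18 of 22179 genes (0.0812%) were higher in the Slc17a7-high arrays and 0 (0%) were lower. The higher count depended on the ranking: with 5 arrays a class it was 6 (Cck, Frzb, Nrn1, Slc30a3, Smim43 and Tafa1), and with arrays ranked by Neurod6 or Tbr1 it was 10 and 8. Without the demand on size, 265 genes (1.19%) were higher and 67 (0.302%) lower with no overlap in either sex. The median difference over all named genes was 0.0075 in females and −0.0025 in males. Array medians were close to each other within a sex, so these values near 0 are no separate result.

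The leading gene was Cck, which encodes the neuropeptide cholecystokinin, made in the forebrain by many pyramidal neurons and by a class of interneurons. It read 10.60, 10.69, 10.55 and 10.27 on high female arrays and 9.76, 9.85, 8.81 and 8.59 on low ones. On the male arrays Cck read 10.51, 10.66, 10.50 and 10.30 against 7.73, 7.42, 7.12 and 6.94. The high arrays were 2.42-fold above the low arrays in females and 9.13-fold in males, and the male high arrays were nearly level with each other (SD 0.15, n = 4).

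Prdm8, a PRDM-family nuclear protein that represses transcription in developing neurons, came next. Its female values were 9.31, 9.49, 9.43 and 8.93 on high arrays and 8.56, 8.52, 7.17 and 7.28 on low arrays, and its male values were 8.34, 9.16, 8.99 and 8.70 against 6.41, 5.45, 6.18 and 5.91. The differences of 1.41 and 2.81 were the largest for any called transcriptional regulator. Neurod2, a relative of Neurod6 with roles in cortical neuron differentiation, differed by 1.06 in females and 1.93 in males. It read 8.40 to 8.89 on high and 7.21 to 8.12 on low female arrays, and 8.21 to 8.49 on high and 6.30 to 6.61 on low male arrays.

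The 12 called genes that the promoter table lists are Cck, Prdm8, Neurod2, Tbr1, Slc30a3, Smim43, Tafa1, Dkkl1, Frzb, Hs3st2, Mical2 and Prss23, and Ccn3, Vxn, Nrn1, Syt17, Nptx1 and Rspo3 were not matched. Since the transcription factors Neurod2, Neurod6 and Tbr1 followed the ranking, promoter sequences of RefSeq (build GRCm38.p6, 250 bases before to 50 after the start) were searched on both strands for the E-box CAGATG, a motif that NeuroD factors bind, and for AGGTGTGA, a motif bound by T-box factors. These motifs do not overlap one another. The E-box occurred in 4 of 12 genes (33.3%: Cck, Dkkl1, Neurod2, Prdm8) against 19.2% of 27025 genes, or 17.2% of 32851 promoters. The T-box motif occurred in 1 of 12 genes (8.33%: Slc30a3) against 1.48% of genes, or 1.28% of promoters. A match is a string of letters and not a shown binding site. The promoters of Slc17a7 (plus strand, chr7:45163671-45163970, no match), Neurod2 (minus strand, chr11:98329596-98329895, E-box at position −118 from the start), Cck (minus strand, chr9:121495645-121495944, E-box at −30), Prdm8 (plus strand, chr5:98180619-98180918, E-box in reverse complement at 22) and Slc30a3 (minus strand, chr5:31093478-31093777, T-box motif at −232) are shown 5′ to 3′, because these genes rank the arrays or carry a match among the leading genes; capitals mark the match.
Slc17a7: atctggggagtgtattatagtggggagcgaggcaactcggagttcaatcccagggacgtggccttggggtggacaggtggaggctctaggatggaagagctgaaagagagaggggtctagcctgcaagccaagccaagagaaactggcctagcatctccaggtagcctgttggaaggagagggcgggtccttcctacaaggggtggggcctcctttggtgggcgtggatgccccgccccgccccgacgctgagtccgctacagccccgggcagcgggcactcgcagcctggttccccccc
Neurod2: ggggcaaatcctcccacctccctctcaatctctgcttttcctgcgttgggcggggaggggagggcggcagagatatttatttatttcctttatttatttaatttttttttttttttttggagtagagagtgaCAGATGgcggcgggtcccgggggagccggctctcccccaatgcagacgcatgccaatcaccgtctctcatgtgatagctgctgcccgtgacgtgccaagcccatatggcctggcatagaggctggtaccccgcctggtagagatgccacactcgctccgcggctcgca
Cck: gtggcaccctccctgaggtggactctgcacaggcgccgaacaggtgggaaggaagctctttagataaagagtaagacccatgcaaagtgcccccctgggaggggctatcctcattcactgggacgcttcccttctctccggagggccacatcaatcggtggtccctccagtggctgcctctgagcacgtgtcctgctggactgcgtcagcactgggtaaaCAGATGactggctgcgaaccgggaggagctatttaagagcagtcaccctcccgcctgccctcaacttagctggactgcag
Prdm8: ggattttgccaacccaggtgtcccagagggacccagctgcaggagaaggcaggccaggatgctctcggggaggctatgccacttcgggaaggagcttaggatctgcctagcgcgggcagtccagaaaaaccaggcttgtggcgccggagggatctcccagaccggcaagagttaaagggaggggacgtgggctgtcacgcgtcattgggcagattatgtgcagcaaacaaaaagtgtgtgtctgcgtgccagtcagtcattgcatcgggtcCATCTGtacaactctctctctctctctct
Slc30a3: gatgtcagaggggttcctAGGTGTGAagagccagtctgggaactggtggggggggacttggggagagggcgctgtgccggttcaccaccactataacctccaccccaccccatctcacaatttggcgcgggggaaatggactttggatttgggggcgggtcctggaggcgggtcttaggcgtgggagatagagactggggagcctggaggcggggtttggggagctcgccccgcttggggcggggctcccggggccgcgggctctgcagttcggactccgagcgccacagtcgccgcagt

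Several called genes encode secreted or surface proteins. Ccn3 (older symbol Nov), a secreted matricellular protein, read 9.64, 9.52, 9.16 and 8.97 on high and 8.83, 8.50, 7.91 and 7.59 on low female arrays. On male arrays it read 9.03, 9.08, 8.78 and 8.65 against 6.32, 6.69, 6.16 and 6.45. All high arrays lay above all low arrays in both sexes. Nrn1, the activity-induced membrane-anchored protein neuritin, read 10.02, 9.88, 10.04 and 9.70 against 9.38, 8.95, 8.24 and 8.08 in females. In males its values were 9.73, 9.12, 8.85 and 8.54 against 6.37, 6.70, 7.27 and 7.40. The order of the low arrays by Nrn1 differed from that by Slc17a7 in males, where control male 6 was lowest in Slc17a7 and highest of the 4 in Nrn1.

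The secreted proteins Tafa1, a chemokine-like factor, and Frzb, which binds and restrains Wnt ligands, differed by much the same amount in both sexes: Tafa1 by 1.22 in females and 1.20 in males, and Frzb by 0.98 and 1.25. Rspo3, a secreted R-spondin that strengthens Wnt signalling, differed by 0.86 and 1.20. Dkkl1, a relative of the Dickkopf proteins, differed by 0.88 and 1.43 from a low level, its low male arrays reading 4.76 to 5.08. Prss23, a secreted serine protease, had the smallest averaged difference of the called genes (0.91 and 1.10), and the other probe set of Prss23 gave 0.015 and 0.13. Hs3st2, an enzyme that sulfates heparan chains, differed by 0.54 in females, where control female 4 (6.96) of the high class barely exceeded knockdown female 4 (6.93) of the low class, and by 1.59 in males.

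Genes of the synapse and cytoskeleton were also called. Slc30a3 encodes ZnT3, which fills vesicles of many cortical glutamatergic terminals with zinc. It read 8.95, 8.90, 8.90 and 8.54 against 8.34, 7.59, 7.26 and 7.38 in females and 8.11, 8.41, 7.79 and 7.34 against 6.29, 6.54, 6.46 and 6.02 in males. Nptx1, a neuronal pentraxin that gathers AMPA receptors, differed by 0.67 and 1.47. Syt17, a synaptotagmin family member, differed by 1.02 and 1.14, with control female 4 of the high class at 8.79 and knockdown female 4 of the low class at 8.78. Mical2, an actin-oxidizing enzyme, differed by 0.72 and 1.33. Vxn, a small protein of developing neurons, differed by 0.87 and 2.65, and its low male arrays were level at 7.27 to 7.52. Smim43, a small membrane protein, differed by 0.82 and 1.70.

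For all 18 called genes the mean of the arrays between the classes lay between the high and low means, in females and in males. Measured from the low mean (0) to the high mean (1), the median position of these arrays over the 18 genes was 0.553 in females and 0.4192 in males. The middle arrays had no part in choosing the genes, although they were ranked by the same Slc17a7 values.

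**Figure D2:**
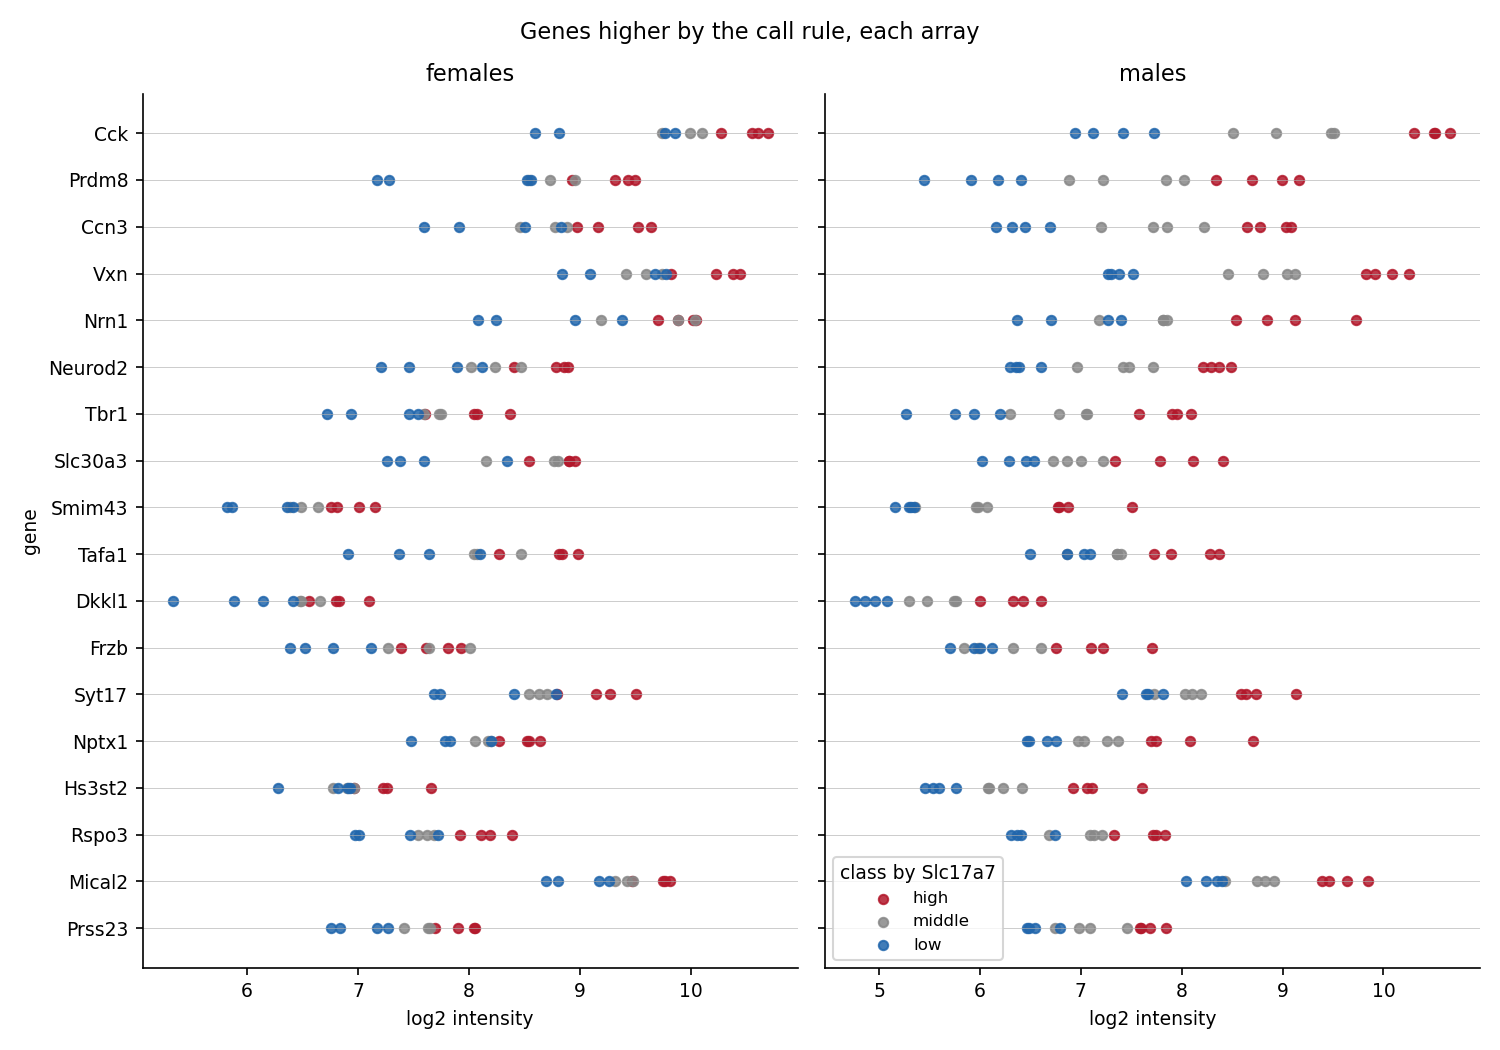
Log2 intensity (horizontal axes) of the 18 called genes on each female (left) and male (right) array, with colour for the class by Slc17a7. High (red) and low (blue) points do not overlap, as the call rule demands. In males the middle arrays (grey) of Cck lie between them at 8.51 to 9.51. In both sexes some middle arrays of other genes lie among the high or low ones, such as control male 4 for Nrn1 (7.18, low arrays 6.37 to 7.40).

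The female and male arrays share no mouse, so genes chosen in one sex could be looked up in the other. In females alone 10 genes (0.0451%) were higher by at least 1 with no overlap, and 0 (0%) were lower. All 10 were also higher in males, where their median difference was 1.75 (range 0.49 to 3.19), and 8 of the 10 did not overlap there, against 4.68% of all genes that were higher in males with no overlap. The exceptions were Abi3bp, an extracellular matrix protein (1.07 in females, 0.90 in males), and Ndst4, a heparan sulfate enzyme (1.39 and 0.49). Ndst4 read 8.53, 8.21 and 8.17 on 3 high male arrays but 6.35 on control male 1, the male array with the most Slc17a7, and Abi3bp likewise read 6.86 there against 8.18 to 8.24 on the other high male arrays.

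In males alone 39 genes (0.176%) were higher by at least 1 with no overlap and 7 (0.0316%) were lower. All 39 were higher in females too, with a median difference of 0.75 (range 0.20 to 1.48), and 28 of them did not overlap there, against 4.1% of all genes. The 8 genes past both criteria in both sexes made up 8 of the 10 female and 8 of the 39 male genes. These were Cck, Ccn3, Neurod2, Nrn1, Prdm8, Slc30a3, Syt17 and Tafa1. Nmbr, the neuromedin B receptor, had the largest difference in females of any gene higher in males (1.48 against 1.79) but overlapped in females, where knockdown female 4 of the low class read 7.08 and control female 4 of the high class 7.06.

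The 7 genes lower in males were Itih3 (−1.31), A730046J19Rik (−1.26), Etnppl (−1.17), Dgkk (−1.16), Calcr (−1.04), AW551984 (−1.02) and Gabrq (−1.02). Etnppl is a lipid-handling enzyme found mainly in astrocytes, Calcr is the calcitonin receptor and Gabrq encodes a GABA-A receptor subunit. All 7 were lower in females as well, by a median of −0.27, yet 0 of the 7 were free of overlap there, against 2.43% of all genes lower with no overlap in females and 4.22% in males. Itih3 read 7.43, 6.78, 7.09 and 7.77 on high and 8.16, 8.20, 8.85 and 9.09 on low male arrays, whereas the female values were 7.14, 7.18, 7.60 and 7.65 against 7.44, 7.41, 7.91 and 7.49. In Calcr the female difference (−0.85) was close to the male one (−1.04). A further 22 genes were free of overlap in opposite directions in the 2 sexes, 15 of them higher in females and lower in males, and none of the 22 differed by 1 or more in either sex.

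**Figure D3:**
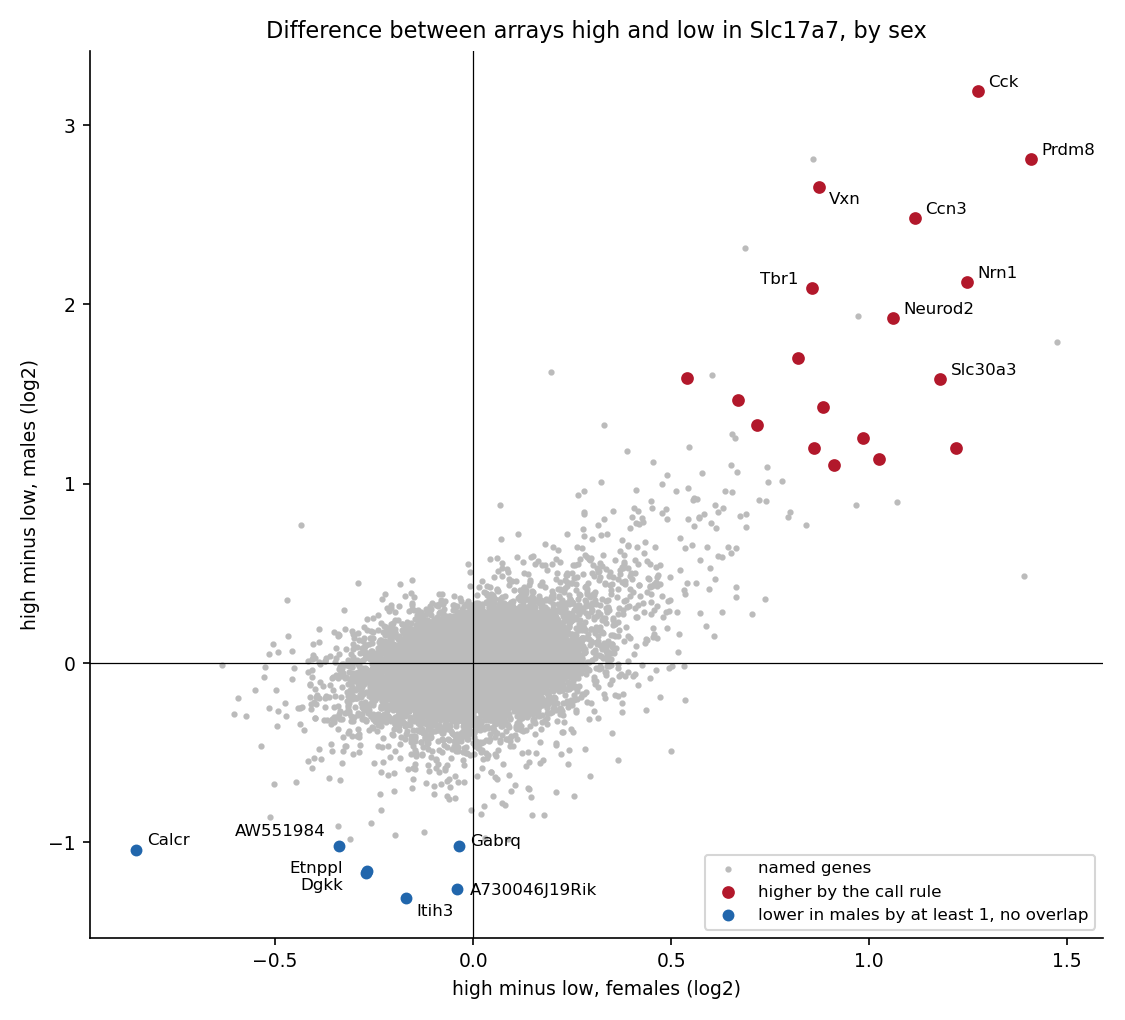
High minus low difference (log2) of every named gene in females (horizontal) and males (vertical), without Slc17a7; red points are the 18 called genes and blue points the 7 genes lower by at least 1 with no overlap in males. Cck lies at 1.27 and 3.19, and the called genes all lie above zero in both sexes while the 7 blue genes lie below zero in both.

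Among the genes lower in the Slc17a7-high arrays with no overlap in either sex, none reached 1. The 15 largest averaged from −0.59 (Peg10) to −0.35 (Rbms3). Peg10, an imprinted gene derived from a retrotransposon, read 8.77, 8.45, 8.78 and 8.87 on high and 8.99, 8.98, 9.35 and 9.56 on low female arrays, and 8.31, 8.45, 8.78 and 9.0 against 9.34, 9.41, 9.38 and 9.11 on male arrays. Dlk1, another imprinted gene, which encodes a Notch-like surface protein, differed by −0.54 in females and −0.46 in males. Agt, which encodes angiotensinogen and is made in the brain mainly by astrocytes, differed by −0.23 and −0.82. P2ry1, a receptor for ADP, differed by −0.57 and −0.29, and Vat1l by −0.39 and −0.54. The other members of the 15 were 1700071K01Rik, Gm4988, Atp6v1c2, Slitrk6, Unc13c, Aim2, Pou3f1, Ankfn1 and Mir344-2.

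Gene lists for cell types and functions, 23 lists with 241 of 256 genes measured, were described by counts and medians beside those of all named genes (11740 of 22179 higher in females, 10818 in males). Of 8 measured cortical excitatory genes besides Slc17a7, all 8 were higher in both sexes, with median differences of 0.76 in females and 1.53 in males. Called members were Tbr1, Neurod2, Slc30a3 and Nptx1, against 0.0812% of all named genes. Without overlap, 4 of 8 were higher in females and 7 of 8 in males, against 4.1% and 4.68%. Sv2b, a synaptic vesicle protein, differed by 0.39 and 1.18, while Neurod1 (0.04 and 0.25) and Emx1 (0.04 and 0.38) differed little in females.

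Genes of separate cortical layers were described in the same way. Of 7 upper-layer genes 5 were higher in females and 2 in males, with medians of 0.10 and −0.13, and 0 were called. The leading members Scnn1a (0.23 and 0.19) and Rorb (0.28 and 0.13) overlapped in both sexes. Only Cux1 was apart in both sexes, and it was lower (−0.08 and −0.18), against 0.302% of all named genes. Of 8 layer 5 genes 6 and 4 were higher (medians 0.13 and 0.01). Fezf2, a zinc finger factor of deep-layer projection neurons, differed by 0.20 in females and 1.62 in males, where control male 1 stood at 8.48 and the other high arrays at 6.56 to 6.60, against 5.17 to 5.63 on the low arrays. Vat1l of the same list was lower in the high arrays, as given above. Of 7 layer 6 genes 5 and 6 were higher (medians 0.46 and 0.44), among them Ccn2, a marker of the deepest cortical layer (0.33 and 1.32), and Sla (0.46 and 1.12), both overlapping in females. Ntsr1 of this list was the only member higher without overlap in both sexes (0.63 and 0.28), against 1.19% of all named genes.

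Markers of the claustrum and endopiriform nucleus, pallial structures beside the striatum, were split, 2 of 4 being higher in each sex. Nr4a2, a nuclear receptor abundant in claustral neurons, read 9.52, 9.26, 9.35 and 8.79 on high and 8.52, 8.95, 8.19 and 8.51 on low female arrays, so the classes overlapped there. The male values of Nr4a2 were 8.74, 9.33, 8.93 and 8.77 against 6.76, 6.33, 6.59 and 6.83, a difference of 2.31 without overlap. Ntng2, a netrin-related surface protein, was higher without overlap in both sexes (0.43 and 0.68). Gnb4 was lower (−0.21 and −0.10), without overlap in females, and Lxn (−0.04 and −0.02) was not higher. Hippocampal genes (3 of 6 higher in females, 4 in males, medians 0.03 and 0.03) and septal genes (3 of 5 and 4 of 5, medians 0.06 and 0.07) showed little difference, C1ql2 being the leading hippocampal member (−0.05 and −0.39) and Trpc4 the leading septal one (0.27 and 0.27). Of 6 thalamic genes 0 were higher in females and 2 in males (medians −0.11 and −0.15), with Tcf7l2 at −0.20 and −0.71 and the transporter gene Slc17a6, which marks subcortical glutamatergic neurons, at −0.09 and −0.48. Differences between these lists were not tested.

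**Figure D4:**
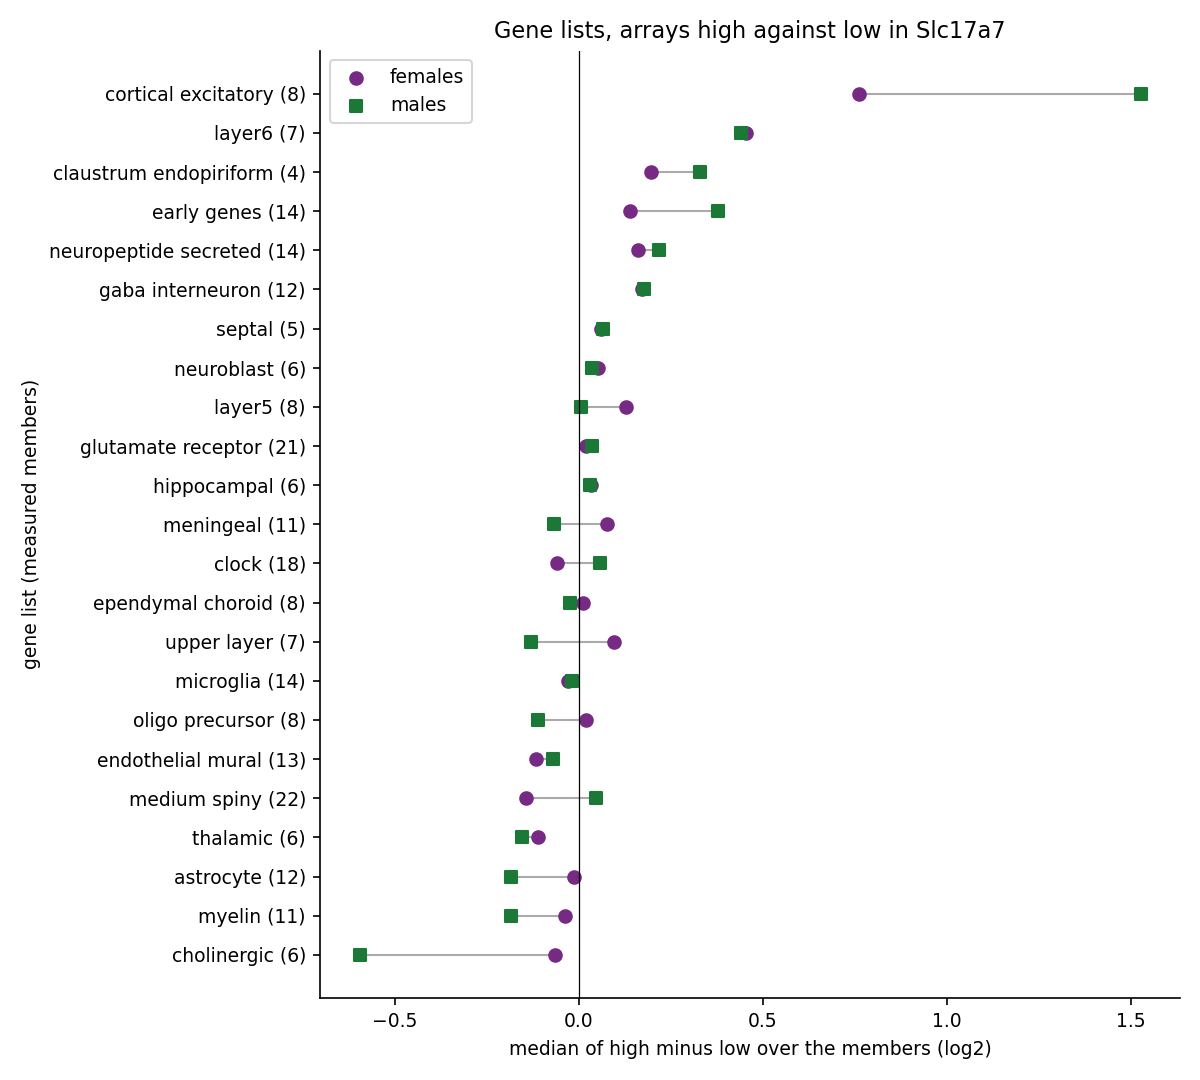
Median high minus low difference (log2, horizontal axis) over the measured members of each gene list, in females (circles) and males (squares), with the number of measured members in brackets. The cortical excitatory list lies farthest right (0.76 and 1.53), and the cholinergic list lies farthest left in males (−0.595).

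Genes of the medium spiny neurons were set beside the ranking next, since most accumbens neurons are of this kind. In females all 22 measured members were lower in the Slc17a7-high arrays (median −0.14), and 9 did so without overlap, against 2.43% of all named genes. The mean of the list lay between 10.32 and 10.42 on high and between 10.46 and 10.53 on low female arrays. Drd2, the dopamine D2 receptor, read 11.41, 11.42, 11.42 and 11.40 against 11.49, 11.71, 11.71 and 11.76 in females. In males 14 of 22 were higher and 8 lower (median 0.05), none without overlap, and the list mean overlapped fully (9.78 to 10.17 on high, 9.82 to 10.16 on low arrays). Foxp2, a forkhead factor and the largest member by the average of both sexes, differed by −0.14 and −0.19. The difference between the sexes was not tested. These counts held after quantile normalization (0 of 22 and 14 of 22 higher), and without control males 1 and 6, whose list means were the lowest, 17 of 22 were higher in males. The part of these genes in the results above was not tested.

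Genes of cholinergic neurons, a list that does not single out interneurons, were lower in the high arrays of males. Of 6 measured members 5 were lower in each sex, with a median of −0.07 in females and −0.60 in males, and 5 of 6 were lower without overlap in males and 0 in females, against 4.22% and 2.43% of all named genes. The list mean lay between 6.87 and 7.22 on high and between 7.53 and 7.65 on low male arrays. Lhx8, a LIM homeobox factor of forebrain cholinergic neurons, read 6.79, 6.67, 6.62 and 7.07 on high and 7.43, 7.66, 7.88 and 7.95 on low male arrays, a difference of −0.94, against −0.12 in females. Slc18a3, the vesicular acetylcholine transporter, differed by −0.69 in males and −0.06 in females. The part of these genes in the other male differences was not tested.

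GABAergic interneuron genes were mostly higher in the high arrays, 9 of 12 in females and 8 of 12 in males (medians 0.17 and 0.18). Without overlap, 4 were higher and 2 lower in females, against 4.1% and 2.43% of all named genes. In males 2 were higher and 2 lower, against 4.68% and 4.22%. Vip, a peptide of cortical interneurons, read 7.89, 7.83, 7.59 and 7.35 against 7.34, 7.15, 6.83 and 6.74 in females. In males Vip read 7.28, 7.12, 6.82 and 6.88 against 6.20, 5.74, 5.87 and 5.88, so the classes were apart in both sexes, by 0.65 and 1.10. Cort, cortistatin, differed by 0.54 and 0.39, whereas Lhx6, a factor of interneurons of ventral origin, differed by 0.03 and −0.80. The members lower without overlap were Lamp5 (−0.21) and Th (−0.22) in females and Lhx6 and Kit (−0.30) in males.

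Of 14 neuropeptides and secreted factors 10 were higher in females and 9 in males (medians 0.16 and 0.22). Cck, Ccn3 and Nrn1 were called, against 0.0812% of all named genes. Without overlap, 3 were higher and 0 lower in females, against 4.1% and 2.43%. In males 6 were higher and 1 lower, against 4.68% and 4.22%. Of 21 glutamate receptor genes 12 were higher in each sex (medians 0.02 and 0.04). Grm2, a presynaptic inhibitory receptor, differed by 0.48 and 1.0, and Grin2a, an NMDA receptor subunit, by 0.22 and 0.56. They were the members higher without overlap in both sexes, against 1.19% of all named genes. Without overlap in females 3 receptor genes were higher and 1 lower, against 4.1% and 2.43%. In males 4 were higher and 2 lower without overlap, against 4.68% and 4.22%. Immediate early genes, which neuronal activity induces within minutes, were higher in 14 of 14 cases in females and 13 of 14 in males (medians 0.14 and 0.38). Of these, 1 did not overlap in females and 8 in males, against 4.1% and 4.68% of all named genes, so the female count is near the background. Egr1, a zinc finger factor, was the member apart in both sexes, reading 9.23, 9.25, 9.32 and 9.09 against 9.04, 9.0, 8.68 and 9.05 in females and 9.28, 9.22, 9.16 and 8.91 against 8.59, 8.50, 8.15 and 8.0 in males. Nr4a3 differed by 0.27 and 0.94.

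Clock genes did not follow the ranking, with 7 of 18 higher in females and 12 of 18 in males (medians −0.06 and 0.06) and 0 called. Rorb and Bhlhe41 (−0.26 and −0.16), a repressor of the clock, had the largest differences by the average of both sexes. Nr1d1, the target of the hairpin, differed by 0.01 in females and −0.17 in males, and the classes overlapped in both.

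Glial and vascular lists held 0 called members, and their largest medians in size were those of myelin and astrocyte genes in males. Myelin genes were lower in 11 of 11 cases in males (median −0.18) and in 7 of 11 in females (−0.04), none without overlap, with Opalin (−0.06 and −0.31) and Mobp (−0.10 and −0.16) leading. Astrocyte genes were lower in 9 of 12 cases in females and 11 of 12 in males (medians −0.01 and −0.18). Without overlap, 3 of the 12 were lower and 1 was higher in males, against 4.22% and 4.68% of all named genes. In females 1 was lower and 0 were higher without overlap, against 2.43% and 4.1%. Besides Agt, the GABA transporter gene Slc6a11 was apart in males (−0.82) and level in females (−0.005). Oligodendrocyte precursor genes (5 of 8 and 3 of 8 higher, medians 0.02 and −0.11, Olig2 −0.09 and −0.37, Olig1 0.02 and −0.24) and microglial genes (2 of 14 and 6 of 14 higher, medians −0.03 and −0.02, Ctss −0.15 and −0.09, C1qb −0.21 and 0.00) had 0 called members. So had endothelial and mural genes, of which 2 of 13 were higher in each sex (medians −0.11 and −0.07, Ly6c1 −0.43 and −0.37, Acta2 −0.13 and −0.26). Meningeal genes were higher in 10 of 11 cases in females and 4 of 11 in males (medians 0.08 and −0.07, Dcn 0.00 and −0.35, Igfbp2 0.20 and 0.13), and without control males 1 and 6 the male count was 1 of 11, with a median of −0.20. Ependymal and choroid plexus genes (4 of 8 and 2 of 8 higher, medians 0.01 and −0.02, Kl −0.30 and −0.19, Ttr 0.28 and 0.08) and neuroblast genes (5 of 6 higher in each sex, medians 0.05 and 0.04, Cd24a 0.19 and 0.06, Igfbpl1 −0.06 and 0.20) completed the set.

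The ranking did not use the hairpin labels, so these could be tested against it. The high class held 4 control and 4 knockdown arrays, the low class 4 and 4, and the middle 3 and 4. Fisher's exact test on high and low arrays gave p = 1 (two-sided) over both sexes and also within females (2 and 2 against 1 and 3) and within males (2 and 2 against 3 and 1). Slc17a7 in control females was 10.39 ± 0.60 (SD, n = 5), and in females labelled knockdown it was 10.29 ± 0.76 (SD, n = 6). The difference of −0.11 was smaller than the spread (two-sided exact permutation test, p = 0.79, adjusted p = 0.978 over 52 tests, and 0.00216 is the smallest p this design allows). Control males stood at 7.46 ± 2.44 (SD, n = 6) and males labelled knockdown at 8.63 ± 1.68 (SD, n = 6), a difference of 1.17 that did not exceed the spread either (exact permutation p = 0.372, adjusted p = 0.936). Among the 52 comparisons of markers and list means, the lowest p was that of the microglial mean in males (0.08 higher in arrays labelled knockdown, exact permutation p = 0.0152, adjusted p = 0.788).

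Over all 41345 probe sets, limma found 0 (0%) past an adjusted p of 0.05 for hairpin against control in females, in males and in their average. The counts at an unadjusted p under 0.05 were 2423, 1948 and 1949. With Slc17a7 as a covariate, which leaves 41344 probe sets to test, limma again found 0 in each, with 2612, 2039 and 1993 at an unadjusted p under 0.05.

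The 18 called genes were chosen for following Slc17a7, so their values with Slc17a7 as a covariate are a description, and their label difference must move against that of Slc17a7. In males all 18 were higher in arrays labelled knockdown, by a median of 0.23 (range 0.05 to 0.80), as Slc17a7 itself was by 1.17, and none passed the threshold (lowest limma adjusted p = 0.996). With Slc17a7 as a covariate 2 of 18 were higher, and the median was −0.15 (range −0.35 to 0.08). In females the median went from −0.02 (8 of 18 higher) to 0.04 (10 of 18). Prdm8 in males, for example, went from 0.80 (SE 0.57) to 0.08 (SE 0.24), and Cck from 0.68 (SE 0.61) to −0.14 (SE 0.15). Each fit uses a spread shared by both sexes, so these SEs are not those of males alone. The slope on Slc17a7 is shared as well, so the adjusted values of either sex rest on arrays of both. Slc17a7 itself varied more between male mice (SD 2.44 in controls, 1.68 in arrays labelled knockdown) than between female mice (0.60 and 0.76). The SD between arrays of a group, as a median over the 18 genes, was 0.64 without and 0.31 with the covariate, and it was smaller with it for 18 of 18. For the other 22161 named genes the medians were 0.12 and 0.12, with a smaller SD for 10509.

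**Figure D5:**
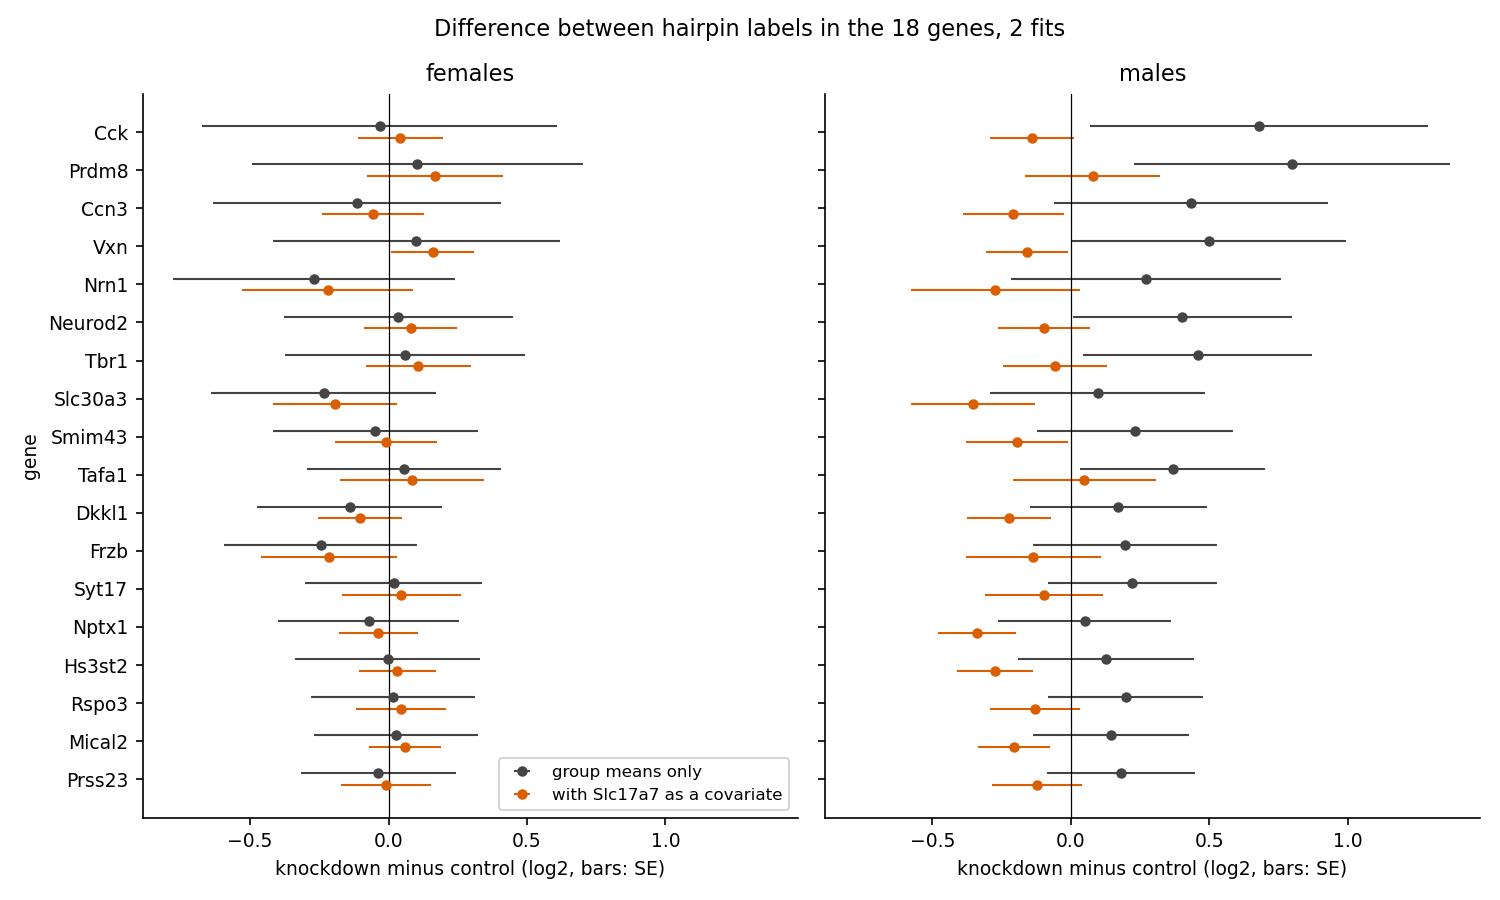
Knockdown minus control difference (log2, horizontal axis, bars are the SE from limma) of the 18 called genes in females (left) and males (right), without (dark grey) and with (orange) Slc17a7 as a covariate. The SE of each fit rests on a spread shared by both sexes, and the slope on Slc17a7 is also shared. In males the dark grey points all lie above 0, from 0.05 to 0.80, and the orange ones lie between −0.35 and 0.08 with shorter bars.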

How the data were processed

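Per the labels, cDNA from 150 ng of total RNA per mouse was hybridised to arrays after biotin labelling. The authors deposited log2 intensities of 41345 probe sets on 23 arrays. Per the submitters' processing notes they used Transcriptome Analysis Console, and the sources used here do not state its version, the normalization or the genome build. Array medians show separate normalization of females and males. All per-sample columns were used (0 left out).

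Of the probe sets, 23521 carry a lone symbol in the platform annotation, 1814 carry several and 16010 carry none. Each of 22180 named genes is read from its lone-symbol probe set with the highest mean. Arrays were ranked by Slc17a7 within sex, and classes, differences, calls and list counts were computed in Python 3.11.15 with no test. Named genes are Slc17a7, Neurod6, Tbr1, Nr1d1, the 15 largest without overlap in each direction, and in each list the called members or else the 2 largest; other genes named were chosen after their values were seen. Members, lists and tests were chosen with earlier results of these data known.

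Hairpin against control was fitted with limma 3.58.1 (R 4.3.3), 1 mean per group over 23 arrays (19 residual degrees of freedom, prior 3.24), Benjamini-Hochberg adjusted over all probe sets. Markers and list means were compared by exact permutation tests. The p values measure the spread between mice, and the number of arrays limits precision. The scripts were tested on simulated data. Alternatives covered class size, ranking gene, fold, overlap, normalization, probe sets, dim genes (mean under 5), covariates, array weights, the replicate block and single arrays.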

Additional observations from a re-analysis of the deposited data

Results flagged for a closer look

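Within the label groups of 5 or 6 arrays, Dixon's test at the 5% level was applied to 23 measures (92 groups of values), and 5 values stood apart. Chance gives about 1 such value in 20 groups. The 92 groups are not independent, because the 23 measures come from the same arrays. Several of these measures, such as Slc17a7, Neurod6, Nrn1 and Slc30a3, also move together. The chance rate therefore cannot tell whether the 5 values arose by chance. Knockdown male 6 read 5.37 for Slc17a7, against 8.72 to 9.97 in the other males labelled knockdown, and 5.49 for Neurod6, against 7.12 to 8.02, and it is in the low class. Control female 1, also of the low class, read 8.24 for Nrn1, against 9.70 to 10.03 in the other control females, and 7.26 for Slc30a3, against 8.54 to 8.90. Control female 4, the last array of the high class, read 9.93 for Nr1d1, against 10.05 to 10.09 in the other control females.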

How the results depend on the processing

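The 18 higher calls became 28 with 3 arrays a class (all 18 among them), 6 with 5 arrays a class, 10 with arrays ranked by Neurod6 and 8 by Tbr1 (7 of the 18 in each), and 62 at 1.5-fold. In females Neurod6 ranked 3 of the 4 high and 3 of the 4 low arrays into the same class and swapped 1. Ranking by the cortical list mean or by Slc17a7 relative to its label group gave the same 18 genes, but that mean includes Slc17a7 and 4 of the called genes, and the relative value is Slc17a7 itself, so the rankings are not independent. Leaving out 1 array gave 14 to 24 calls (14 without knockdown female 2, 24 without control female 4). Leaving out control males 1 and 6 together, an alternative added after the data were seen, gave 17, of which 15 were shared. The 0 lower calls became 1 with 3 arrays a class and 1 at 1.5-fold, and 0 to 1 when 1 array was left out (1 without control female 4 or knockdown female 1). List medians stayed within 1 SD of the spread between arrays in 523 of 529 values, and values of named genes in 1698 of 1702. Most of these alternatives left out 1 array, which can shift an averaged difference only little. Ranking by the cortical list mean gave the same classes. Most of these values could therefore hardly move, and the counts are no measure of robustness. Without control males 1 and 6 the male layer 5 median went from 0.0075 to −0.04. The cause of these changes was not tested. In the hairpin fits, leaving out 1 array gave 0 to 1 probe sets past the threshold in females (1 without knockdown female 1 or knockdown male 4) and 0 to 1 in males (1 without control male 1 or control male 5). With array weights, 0 passed in either sex, and 3345 female and 1565 male probe sets had an unadjusted p under 0.05. The difference of the label effects between males and females had 0 past the threshold (2358 at an unadjusted p under 0.05, lowest limma adjusted p = 0.114), and 1 with array weights (0.0267), without control male 1 (0.00228) or without control male 5 (0.0373). With dim probe sets left out, 1208 male probe sets had an unadjusted p under 0.05, of 28537 tested. The female Slc17a7 label difference ranged from −0.35 to 0.17 when 1 array was left out, turning positive without control female 3 (0.06) or knockdown female 2 (0.17). The replicate block gave 0 past the threshold in both sexes, 2697 and 1934 probe sets at an unadjusted p under 0.05, and Slc17a7 label differences of −0.21 and 1.17. Same-numbered arrays correlated from −0.096 to 0.135 in their deviations, and 1 of 11 pairs (male 6) was the best match for both arrays, so the numbers were not taken to pair mice. Signal over background was not measured here, so values near the lower quartile limit the male folds.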

Other observations

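A probe set that the annotation assigns to 2 symbols, 17381774, met the call rule as well, at 1.18 in females and 2.24 in males, and is left unnamed. None of the 16010 probe sets without a symbol met it.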
